A study of Mus musculus with 9 samples.

Results

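Cxcl16, Ccl9 and Ccl27a are 3 chemokine genes that were described together across endothelial progenitor cells (EPCs) from the bone marrow of male (M), female (F) and ovariectomized (OVX) mice. They were found by gene symbol in the deposited tables, and they are 3 of the 2810 genes that those tables list. Bone marrow EPCs came from 8 weeks old C57BL/6J mice, and the OVX mice had lost their ovaries at around 35 days of age. All groups were depleted of lineage-positive cells, sorted magnetically for Sca-1 and CD31 and grown in EGM-2, an endothelial growth medium, while a label also calls the cells freshly isolated. M-EPCs, F-EPCs and OVX-EPCs had 3 RNA-seq libraries each, 9 in all. The study's methods speak of biological replicates and, for its data in general, of independent experiments, but neither they nor the labels tie each library to its own animals or culture, so p-values measure the spread between these libraries.

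Chemokines are small secreted proteins that draw leukocytes and progenitor cells along a gradient by binding receptors on the cell surface. They are named after the spacing of their first conserved cysteines, which stand next to each other in the CC class and are separated by another residue in the CXC class. Cxcl16 is unusual in being made as a membrane protein on a mucin stalk, from which the metalloproteases Adam10 and Adam17 release it. It binds the receptor Cxcr6, and the membrane form also takes up oxidized lipoprotein. Ccl9, which binds Ccr1, is a rodent chemokine that macrophages and other myeloid cells make without stimulation. Ccl27a encodes the chemokine known as CTACK, made chiefly by keratinocytes of the skin, which attracts T cells that carry Ccr10. None of the genes of these receptors was listed in any table.

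The coding stretches around the class-defining cysteines are shown because they separate Cxcl16 from both other genes. They were read from GENCODE transcripts on GRCm38, 5′ to 3′, with the codons of the class-defining cysteines in capitals.
Cxcl16, coding bases 79 to 135: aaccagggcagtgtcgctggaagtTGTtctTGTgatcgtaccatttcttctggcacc
Ccl9, coding bases 145 to 198: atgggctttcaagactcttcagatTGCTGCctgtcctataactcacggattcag
Ccl27a, coding bases 208 to 261: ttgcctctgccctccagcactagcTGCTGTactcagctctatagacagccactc
The cysteine codons were codons 35 and 37 in Cxcl16, 57 and 58 in Ccl9, and 78 and 79 in Ccl27a, counted from the start codon. The longest reading frames had 246, 122 and 164 codons before the stop codon, in the same order.

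All 3 genes lie on the minus strand of GRCm38. Cxcl16 lies on chromosome 11 from 70453983 to 70459984 and has 5 exons. Its annotated span overlaps Zmynd15 on the opposite strand, and whether the counting used strand is not given in the sources used here. Ccl9 lies on the same chromosome from 83572919 to 83578636, in a cluster of CC chemokine genes, and has 4 exons. Ccl27a lies on chromosome 4 from 41769467 to 41774247 and has 8 coding transcripts, which the single value per gene does not separate. Ccl27a shares stretches of at least 95% identity over at least 100 bases with transcripts of 5 other genes, among them Ccl27b at 99.3% over 425 bases, so that its reads may be split among copies and its values are uncertain. Cxcl16 shared no such stretch with another gene. Ccl9 shared short stretches with transcripts of 45 genes, of which only Sphk1 was listed.

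In each table a value is a normalized count, the reads of a gene after division by the library's size factor, which the authors chose anew for each comparison. The size factors lay between 0.819 and 1.11. The reads on listed genes summed to between 1602317 and 2070442 per library for M-EPCs against F-EPCs, and to between 454298 and 468833 for F-EPCs against OVX-EPCs. The tables list only genes that passed the authors' screen, which asked for a 2-fold change. All 3 chemokine genes were listed for M-EPCs against F-EPCs, Ccl9 and Ccl27a for F-EPCs against OVX-EPCs, and none for M-EPCs against OVX-EPCs. Because these genes were chosen on these values, their differences are given as a description, without a p-value.

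The genes differed in direction. M-EPCs had 2.03-fold more Cxcl16 and 3.86-fold more Ccl27a than F-EPCs, while Ccl9 was 2.92-fold higher in F-EPCs. F-EPCs also stood apart from OVX-EPCs, with 2.60-fold more Ccl9 and 3.93-fold less Ccl27a. The sizes of these differences depended on the scaling. Ccl27a rested on few reads and did not pass the main test described below. For Ccl9 and Ccl27a, M-EPCs and OVX-EPCs were close to each other on the authors' size factors. In a bulk sample, fewer cells of a kind and less RNA per cell cannot be told apart.

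**Figure D1:**
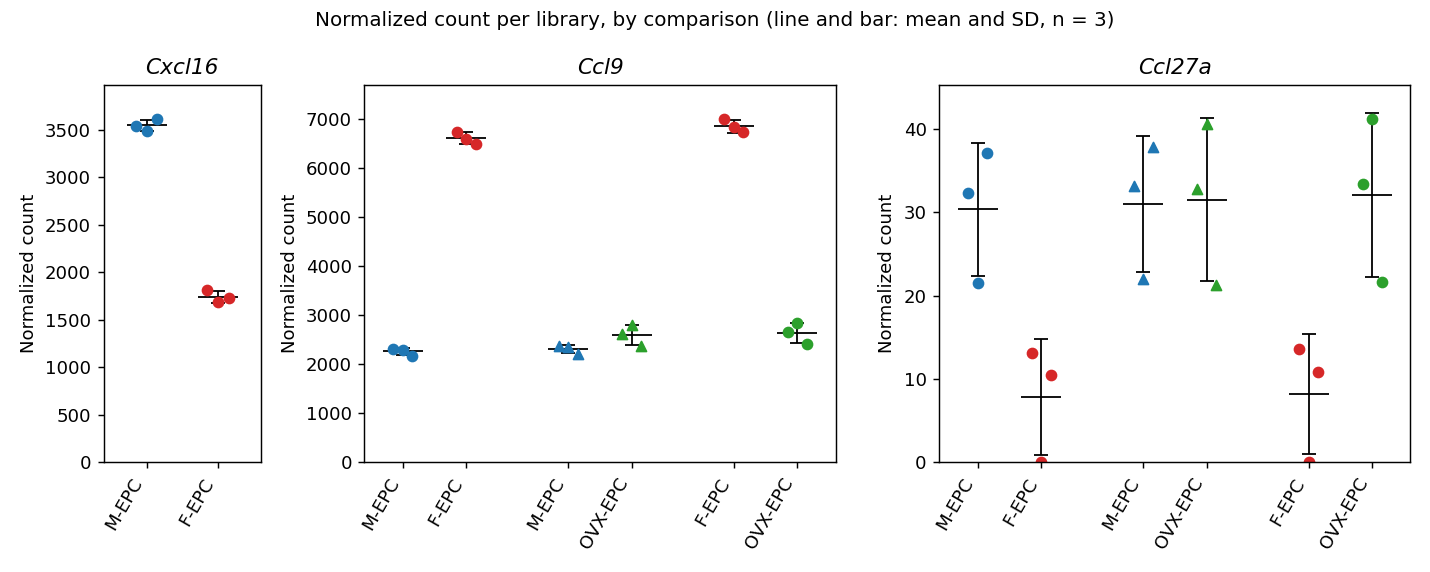
Normalized count of Cxcl16, Ccl9 and Ccl27a (vertical axes, from 0) in each library, by group and comparison, with a line and bar for the mean and SD of 3 libraries. Circles are values of a table that lists the gene, and triangles are its reads divided by the authors' size factors for M-EPCs against OVX-EPCs. F-EPC libraries sit lowest for Ccl27a and highest for Ccl9, at 6481 to 6986 normalized counts. For Cxcl16, shown for M-EPCs and F-EPCs only, they sit below the M-EPC libraries.

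Cxcl16, the membrane-bound ligand, ranked 128th of 2093 listed genes by mean normalized count, uncorrected for length. M-EPC libraries 1 to 3 had 3538, 3492 and 3613 normalized counts, and F-EPC libraries 1 to 3 had 1813, 1688 and 1734. The lowest M-EPC library stood far above the highest F-EPC library. The means were 3548 ± 61.3 in M-EPCs and 1745 ± 63.1 in F-EPCs (SD, n = 3), a log2 fold change of 1.02 (standard error 0.09, limma). The difference of 1803 normalized counts was many times the spread within either group. It was nevertheless a small change for a listed gene: 4.20% of the genes listed in this comparison had a smaller one, and a gene under a 2-fold change would not be listed. Its level in OVX-EPCs was not analysed here. With size factors recomputed from the listed genes alone, the log2 fold change was 0.67 by DESeq2 and 1.11 by TMM, so that its position relative to a 2-fold change depended on the scaling.

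Ccl9, the myeloid CC chemokine, was the gene with the opposite direction. Between M-EPCs and F-EPCs, the M-EPC libraries had 2314, 2293 and 2169 normalized counts and the F-EPC libraries 6734, 6582 and 6481. The groups were far apart and each was tight. The means were 2258 ± 78.3 and 6599 ± 127.4 (SD, n = 3), a log2 fold change of -1.55 (standard error 0.09, limma).

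Against OVX-EPCs, on the size factors of that comparison, the F-EPC libraries had 6986, 6820 and 6726 normalized counts of Ccl9. The OVX-EPC libraries had 2655, 2834 and 2416. Again no library of one group reached the range of the other, with OVX-EPCs spread more widely than F-EPCs. The means were 6844 ± 131.7 and 2635 ± 209.6 (SD, n = 3), a log2 fold change of 1.38 (standard error 0.12, limma). Ccl9 ranked 15th by mean normalized count, uncorrected for length, among the 811 genes listed for F-EPCs against OVX-EPCs and 70th among the 2093 listed for M-EPCs against F-EPCs. With size factors recomputed from the listed genes, the log2 fold change against OVX-EPCs was 2.50 to 2.51, in a comparison whose median over all listed genes then rose by 1.12 to 1.13.

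Ccl9 was not listed between M-EPCs and OVX-EPCs, but its reads were the same in every table that holds a library and could be put on the size factors of that comparison. The M-EPC libraries then had 2368, 2345 and 2215 normalized counts and the OVX-EPC libraries 2609, 2793 and 2373. OVX-EPCs were 1.12-fold higher, and the ranges were separated by few counts, with the highest M-EPC library at 2368 and the lowest OVX-EPC library at 2373. Of the genes listed for M-EPCs against OVX-EPCs, selected for their difference, 99.2% had no overlap. The means of 2309 ± 82.4 and 2592 ± 210.4 (SD, n = 3) differed by little more than the SD of the OVX-EPC libraries, a log2 difference of -0.16. On recomputed size factors it was 0.034 (TMM) and 0.46 (RLE and DESeq2), with M-EPCs above. The median over all listed genes moved alongside, by 0.20 (TMM) and 0.62 to 0.63 (RLE and DESeq2). F-EPCs were thus the highest group, and the order of M-EPCs and OVX-EPCs, which depends on the scaling, was not settled.

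Ccl27a, the skin chemokine, was a low-count gene and its values rest on few reads. The M-EPC libraries had 34, 24 and 31 reads, the F-EPC libraries 13, 0 and 11, and the OVX-EPC libraries 34, 43 and 22. Every M-EPC and OVX-EPC library held more reads than every F-EPC library. A count of 0, as in F-EPC library 2, can still arise where about 3 reads are expected. Between M-EPCs and F-EPCs these were 32.4, 21.6 and 37.1 against 13.1, 0 and 10.4 normalized counts. The means were 30.3 ± 7.95 and 7.85 ± 6.93 (SD, n = 3), with exact Poisson 95% intervals of the group means of 23.8 to 36.5 and 4.996 to 11.6, which cover counting error only. The log2 fold change was 2.49 (standard error 1.08, limma, on normalized count plus 1), and it rested in good part on F-EPC library 2: without that library it was 1.27.

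Against OVX-EPCs, the F-EPC libraries had 13.6, 0 and 10.8 normalized counts of Ccl27a and the OVX-EPC libraries 33.3, 41.1 and 21.6. The ranges did not overlap. The means were 8.15 ± 7.19 and 32.0 ± 9.84 (SD, n = 3), a log2 fold change of -2.52 (standard error 1.08, limma), and -1.28 without F-EPC library 2. On recomputed size factors it was -0.85 to -0.86, or -1.98 relative to the shift of the median over all listed genes. M-EPCs and OVX-EPCs overlapped, with 33.1, 22.04 and 37.9 against 32.8, 40.6 and 21.2 normalized counts and a ratio of means of 0.984. The sign of the difference also changed with the scaling, which moved the median over all genes listed there by 0.20 to 0.63.

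By the rule used for all listed genes (adjusted p under 0.05 by limma with Benjamini-Hochberg adjustment, and a log2 fold change of 1 or more in size), Cxcl16 and Ccl9 were called between M-EPCs and F-EPCs and Ccl27a was not. That is 2 of 3 genes, where 97.6% of all genes in this preselected table were called, 48.4% on the side of M-EPCs and 49.3% on that of F-EPCs. For F-EPCs against OVX-EPCs Ccl9 was called and Ccl27a was not, where 98.2% of all listed genes were called, 30.8% higher in F-EPCs and 67.3% higher in OVX-EPCs. By edgeR on the authors' size factors Ccl27a was called in both comparisons. On recomputed size factors it was called between M-EPCs and F-EPCs only, and Cxcl16 was not called with RLE or DESeq2. The libraries of the groups did not overlap for any of the 3 genes in the first of these comparisons, as for 98.3% of all listed genes, nor for the 2 genes listed in the second, as for 98.9%. Nothing about the chemokine genes is read from these counts, since the tables hold genes selected for their difference. The comparisons share libraries, the F-EPC libraries in particular.

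Ratios of reads within a library do not depend on a size factor. The M-EPC libraries had 0.654, 0.657 and 0.600 Ccl9 reads per Cxcl16 read, and the F-EPC libraries had 3.72, 3.90 and 3.74. Cxcl16 reads were thus in excess in every M-EPC library and Ccl9 reads in every F-EPC library. The mean ratios of 0.637 ± 0.032 and 3.78 ± 0.1003 (SD, n = 3) differed by 5.94-fold. This fold combines the opposite changes of both genes given above and is not a further result.

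Ccl27a was set against Ccl9 in all 3 groups in the same way. Per 1000 Ccl9 reads, the M-EPC libraries had 14.0, 9.40 and 17.1 Ccl27a reads, the F-EPC libraries 1.95, 0 and 1.61, and the OVX-EPC libraries 12.6, 14.5 and 8.94. M-EPCs and OVX-EPCs shared 1 range, and F-EPCs lay below it. The means were 13.5 ± 3.87, 1.19 ± 1.04 and 12.01 ± 2.83 (SD, n = 3), so that M-EPCs were 11.4-fold and OVX-EPCs 10.1-fold above F-EPCs. These folds likewise combine the opposite changes of Ccl27a and Ccl9. Per 1000 Cxcl16 reads, Ccl27a had 8.53 ± 2.11 reads in M-EPCs and 4.42 ± 3.88 in F-EPCs, and these ranges overlapped.

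**Figure D2:**
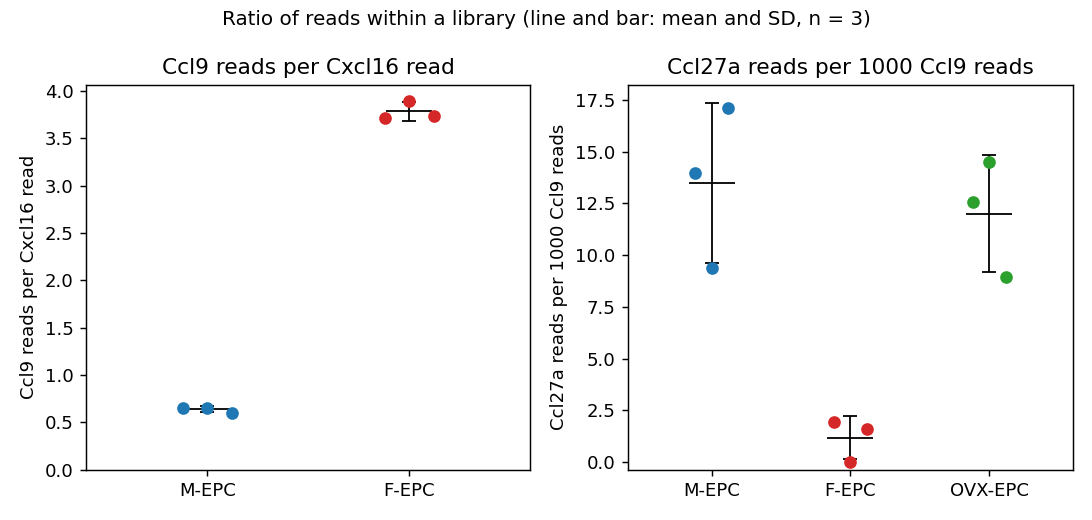
Ccl9 reads per Cxcl16 read (left) and Ccl27a reads per 1000 Ccl9 reads (right) in each library, by group, with a line and bar for the mean and SD of 3 libraries. F-EPC libraries had 3.72 to 3.90 Ccl9 reads per Cxcl16 read against 0.600 to 0.657 in M-EPCs, and at most 1.95 Ccl27a reads per 1000 Ccl9 reads against at least 8.94 in the other groups.

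Levels of different genes were compared per kilobase of the longest coding transcript. In M-EPCs Cxcl16 had 1314 ± 22.7 normalized counts per kilobase, Ccl9 751.3 ± 26.1 and Ccl27a 36.1 ± 9.46 (SD, n = 3). In F-EPCs Cxcl16 and Ccl9 changed places, with Ccl9 at 2195 ± 42.4, Cxcl16 at 646.4 ± 23.4 and Ccl27a at 9.34 ± 8.24. In OVX-EPCs, on the size factors of the comparison with F-EPCs, Ccl9 had 876.6 ± 69.7 and Ccl27a 38.1 ± 11.7 normalized counts per kilobase. Among the 13 ligand genes listed for M-EPCs against F-EPCs, Cxcl16 was 3rd, Ccl9 5th and Ccl27a 11th in M-EPCs by this measure, and Ccl9 was 2nd, Cxcl16 6th and Ccl27a 12th in F-EPCs.

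The promoters of Ccl9 and Ccl27a are shown because these genes had opposite patterns over the 3 groups. They were taken from RefSeq's promoter windows on GRCm38.p6, minus strand, 5′ to 3′, with the matches to the motifs searched in capitals. The Ccl27a window is the one inside the gene, before its downstream start, and its last 57 bases, which lie in annotated exons, are left out.
Ccl9, chr11:83578637-83578886: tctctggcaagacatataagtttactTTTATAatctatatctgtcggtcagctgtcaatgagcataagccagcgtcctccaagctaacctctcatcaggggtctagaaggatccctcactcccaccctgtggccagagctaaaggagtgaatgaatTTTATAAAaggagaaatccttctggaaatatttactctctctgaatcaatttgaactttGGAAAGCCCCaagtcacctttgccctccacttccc
Ccl27a, chr4:41770270-41770462: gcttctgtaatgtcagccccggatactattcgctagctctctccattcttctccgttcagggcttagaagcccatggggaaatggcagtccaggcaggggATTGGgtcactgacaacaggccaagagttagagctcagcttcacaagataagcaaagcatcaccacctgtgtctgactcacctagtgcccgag
The motifs were searched on both strands in the 250 bases before each of 32851 starts. Ccl9 held TATAAA, the TATA box, on both strands in overlapping matches 94 to 87 bases before its start, and again 224 to 219 bases before it. It also held an NF-kB site, GGG and TTCC separated by 3 bases, read on the opposite strand 35 to 26 bases before its start. TATAAA stood in 12.4% and the NF-kB letters in 4.65% of all windows. Of the 3 windows of Ccl27a, 2 held CCAAT (33.8% of all windows) and 2 held GAGGAA, the core of a PU.1 site (23.3%), which was a single site that both windows cover. The letters of the interferon-stimulated response element, GAAA and GAAA separated by 2 bases (2.98%), and of the estrogen response element, GGTCA and TGACC separated by 3 bases (0.0639%), did not occur in these windows. These matches describe letters only.

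Of 42 chemokine ligand genes, 15 were listed in at least 1 table, in both directions, and the others have no value here. Between M-EPCs and F-EPCs 13 were listed, of which 5 rose and 7 fell in M-EPCs (48.4% and 49.3% of all listed genes, so close to the background) and Ccl27a did not pass the test, with a median log2 fold change of -1.55 beside -0.99 over all listed genes. Between F-EPCs and OVX-EPCs 10 were listed, of which 4 were called higher and 5 lower in F-EPCs (30.8% and 67.3% of all listed genes), with a median of -1.15 beside -1.31. On recomputed size factors 7 were called, with 4 higher in F-EPCs and 3 lower. Between M-EPCs and OVX-EPCs, where none of Cxcl16, Ccl9 and Ccl27a was listed, 4 of 10 ligand genes were higher and 6 lower in M-EPCs, with 98.8% of all listed genes called, 40.8% on the side of M-EPCs and 58.0% on that of OVX-EPCs. By DESeq2 on recomputed size factors 8 were called there, 4 in each direction.

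**Figure D3:**
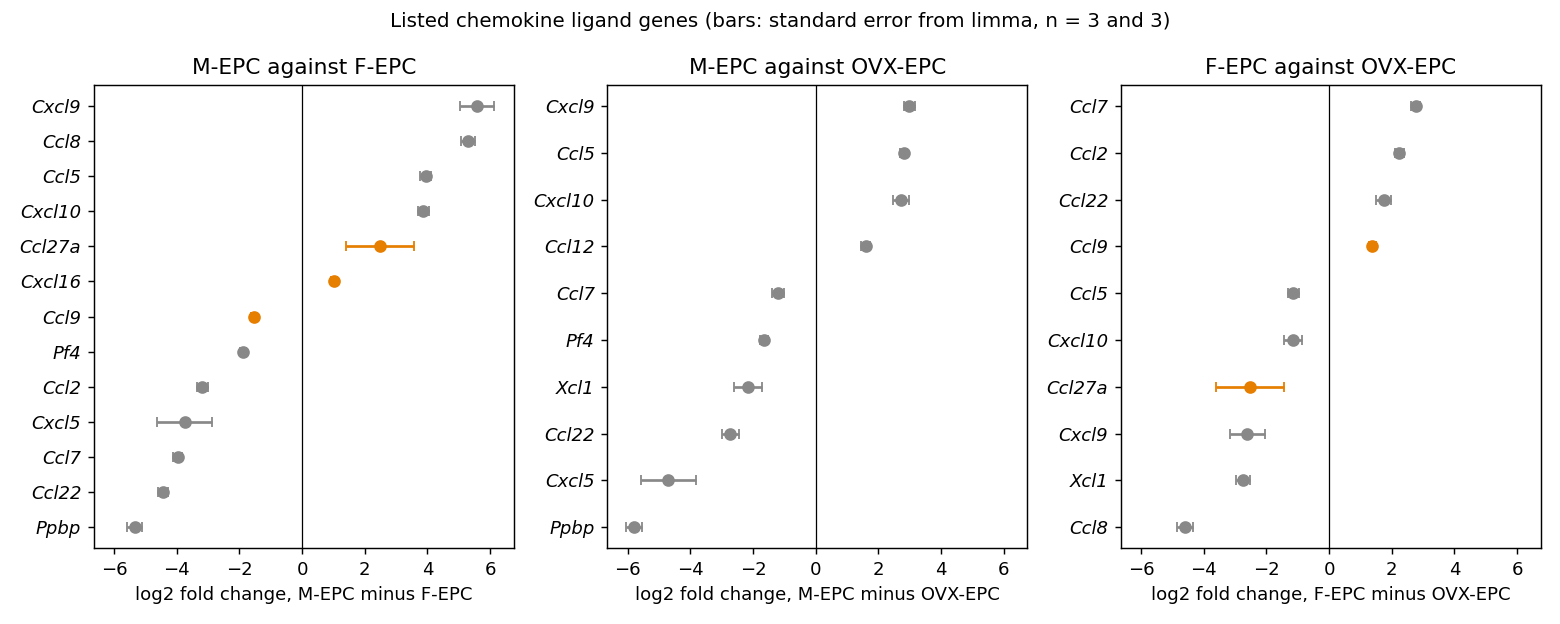
Log2 fold change (horizontal axes, first group minus second) of each listed chemokine ligand gene in the 3 comparisons, with bars for the standard error from limma and with Cxcl16, Ccl9 and Ccl27a in orange. Cxcl16 at 1.02 and Ccl9 at -1.55 had the smallest changes of the 13 ligand genes between M-EPCs and F-EPCs, and Ccl27a had the widest standard error, 1.08.

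Between M-EPCs and F-EPCs, the side of Ccl9 held Ccl2 and Ccl7, which attract monocytes, and also Ccl22 and Cxcl5. It also held Pf4 and Ppbp, which platelets store in their granules. Unlike Ccl9, Pf4 and Ppbp were also higher in OVX-EPCs than in M-EPCs, by 3.13-fold and 54.7-fold. In M-EPCs Ccl2 had 181.1 ± 30.2 normalized counts and in F-EPCs 1636 ± 142.0 (SD, n = 3), and Ccl7 had 105.5 ± 17.1 and 1652 ± 83.1. Their contrast was wider than that of Ccl9, from a lower level per kilobase in both groups. On the side of Cxcl16 in that comparison stood Cxcl9 and Cxcl10, which interferon-gamma induces, and Ccl8 and Ccl5. Ccl5, the gene closest to Ccl9 among listed genes at 42.4 kb, had 1363 ± 69.1 and 88.7 ± 17.7 normalized counts in the same groups, the opposite direction to Ccl9. Within 100 kb of Cxcl16 and of Ccl27a no other gene was listed.

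Of 24 chemokine receptor genes, 10 were listed in at least 1 table. Between M-EPCs and F-EPCs all 5 that were listed fell in M-EPCs, namely Cx3cr1, Ccr7, Ccr2, Ccr3 and Cxcr2, where 49.3% of all listed genes fell in M-EPCs. Cx3cr1, the fractalkine receptor, stood at 164.2 ± 22.9 and 497.8 ± 20.7 normalized counts (SD, n = 3). Between F-EPCs and OVX-EPCs 3 receptor genes were called higher and 3 lower in F-EPCs, beside 30.8% and 67.3% of all listed genes. On recomputed size factors 3 were called, all of them higher in F-EPCs. Against OVX-EPCs, M-EPCs had 8 receptor genes called, of which Ccr1l1 was higher and 7 were lower in M-EPCs, beside 40.8% and 58.0% of all listed genes.

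The genes most like each chemokine were those with the smallest root mean square difference of centered log2 values over the libraries, and they are named as a description only. For Cxcl16, over 6 libraries and 2092 other genes, these were Enc1, Ifit2 and Ddhd1, with differences of 0.026, 0.027 and 0.028 where the median gene had 1.07. Ifit2, an interferon-induced gene, had 10172 ± 261.6 and 5006 ± 146.9 normalized counts (SD, n = 3, M-EPCs first), a ratio of 2.03. For Ccl9, over 9 libraries and 434 other genes, these were Slfn3, Azin1 and Flrt2 (0.093, 0.106 and 0.109, median 1.43). Azin1, which encodes an inhibitor of antizyme, had 2189 ± 38.8 and 6329 ± 492.1 normalized counts. For Ccl27a the nearest genes, Clic5, Prrx1 and Gm22881, were much less alike (0.768, 0.777 and 0.796, median 1.56).

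Ccl9 and Ccl27a stood for the 2 larger of the patterns found among the 435 genes listed in both comparisons with F-EPCs. F-EPCs were lowest, as for Ccl27a, in 259 genes (59.5%) and highest, as for Ccl9, in 137 (31.5%). This tally, by the sign of the fold change alone, rests on the authors' size factors, and with recomputed ones, an alternative chosen after seeing the data, F-EPCs were lowest in 236 to 237 and highest in 147 genes. Of the 435 genes, 312 were, like both chemokines, not listed between M-EPCs and OVX-EPCs.

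Markers of other cells differed between the groups as well, in tables where 49.3% (M-EPCs against F-EPCs), 58.0% (M-EPCs against OVX-EPCs) and 67.3% (F-EPCs against OVX-EPCs) of all listed genes were called lower in the first group. Of 18 macrophage and monocyte markers 4 were listed between M-EPCs and F-EPCs, summing to 1998 to 2354 normalized counts in M-EPCs and 1256 to 1482 in F-EPCs. Marco, a macrophage scavenger receptor, was higher in M-EPCs, while Ly6c2, Ccr2 and Cx3cr1 were lower. All 8 listed of 12 neutrophil markers were lower in M-EPCs (172.3 to 237.1 against 1165 to 1181), with Cxcr2 at 0 in each M-EPC library. Between F-EPCs and OVX-EPCs 5 neutrophil markers were listed, 4 of them higher in F-EPCs (574.9 to 630.6 against 139.2 to 163.0 for the sum), which is the direction of Ccl9. All 8 megakaryocyte and platelet markers were lower in M-EPCs than in F-EPCs (1399 to 1495 against 10664 to 11021). Of 10 stromal markers 7 were listed between F-EPCs and OVX-EPCs, all lower in F-EPCs (200.7 to 262.9 against 935.9 to 1070), which is the direction of Ccl27a, with Des at 0 in each F-EPC library. In the same comparison F-EPCs also had the lower values for the 3 listed T and NK cell markers (3425 to 3613 against 8346 to 9256), mostly Cd4, the 2 listed B cell markers (713.1 to 875.7 against 2499 to 2542), and the single listed marker of each of 3 lists, erythroid Epor (60.8 to 95.4 against 265.1 to 304.0), macrophage Cd163 (47.2 to 76.5 against 134.5 to 176.5) and megakaryocyte and platelet Gp9 (117.0 to 146.5 against 229.7 to 326.1). On recomputed size factors, an alternative chosen after seeing the data, Gp9 and the B cell marker Cd79b changed sides in that comparison, with log2 fold changes of 0.10 to 0.11 and 0.065 to 0.071, and Cd4 and Cd163 came to -0.20 to -0.19 and -0.27 to -0.26. The 7 stromal markers were still lower in F-EPCs and 4 of the 5 neutrophil markers higher. Of the stromal markers, Dcn came to -0.41 to -0.40 and Thy1 to -0.62 to -0.61, while the others stayed beyond a 2-fold change. Of the dendritic cell markers 1 was higher and 1 lower in F-EPCs, and no basophil and mast cell marker was listed. Between M-EPCs and F-EPCs all 7 basophil and mast cell markers were lower in M-EPCs (32.3 to 54.8 against 544.3 to 581.0), as were all 3 listed of 12 T and NK cell markers (0 to 1.20 against 23.2 to 27.5). Of 10 dendritic cell markers 5 were listed, 1 higher and 4 lower in M-EPCs (161.4 to 200.8 against 221.8 to 230.3), and of 6 B cell markers 5 were listed, also 1 higher and 4 lower. Their sum was higher in M-EPCs (1736 to 1899 against 684.3 to 827.0) through Ighm alone, at 1801 against 560.9. The 1 erythroid marker listed of 5 was higher in M-EPCs (172.4 to 246.5 against 58.6 to 91.9). Both listed stromal markers, Col1a2 and Pdgfra, were higher in M-EPCs as well (316.9 to 342.2 against 105.2 to 123.2). Between M-EPCs and OVX-EPCs, where Ccl9 and Ccl27a had ratios of means of 0.891 and 0.984, markers of several cells were nonetheless lower in M-EPCs. This was so for all 6 listed neutrophil markers (119.8 to 187.4 against 558.4 to 590.4), all 8 of megakaryocytes and platelets (1429 to 1530 against 13608 to 14485), all 7 of basophils and mast cells (33.0 to 56.0 against 843.9 to 982.9) and all 4 listed stromal markers (26.9 to 56.9 against 131.1 to 174.4). It was also so for all 9 listed T and NK cell, 5 B cell and 5 dendritic cell markers, while of 3 macrophage and monocyte markers Marco was higher and 2 were lower. The part of these cells in the differences of Cxcl16, Ccl9 and Ccl27a was not tested.

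The sorting markers differed as well. Pecam1, which encodes CD31, was at 487.2 normalized counts in M-EPCs against 157.4 in F-EPCs, and Ly6a, which encodes Sca-1, at 258.9 against 575.5. Between F-EPCs and OVX-EPCs, Pecam1 was at 163.2 against 377.8 and Ly6a at 596.8 against 240.6, while on recomputed size factors their log2 fold changes were -0.086 to -0.079 for Pecam1 and 2.44 for Ly6a. Of 18 endothelial markers 5 were listed between M-EPCs and F-EPCs, of which Pecam1 was higher and Vwf, Kdr, Esam and Tie1 were lower in M-EPCs, and Pecam1 was the only one listed between F-EPCs and OVX-EPCs. Against OVX-EPCs, Vwf, Kdr, Esam and Tie1 were again lower in M-EPCs (318.7 to 351.8 against 3763 to 4107 for the sum). Their part in the results was not tested.

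**Figure D4:**
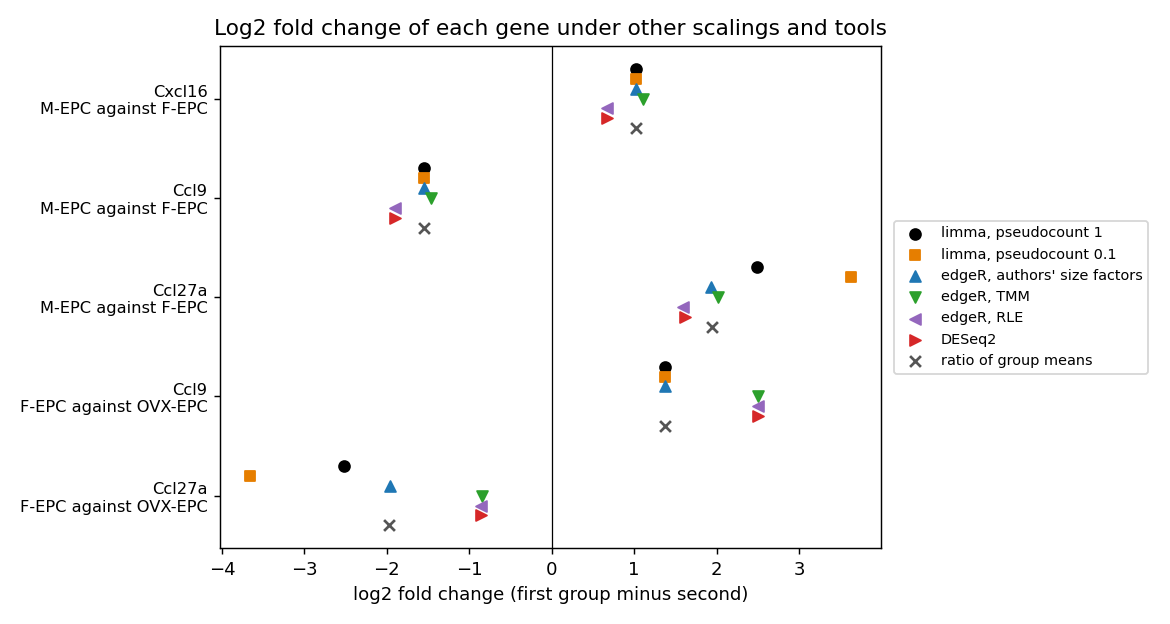
Log2 fold change (horizontal axis, first group minus second) of each gene in each comparison that lists it, under limma with a pseudocount of 1 or 0.1, under edgeR and DESeq2 with other size factors, and as the ratio of group means. Each gene keeps its side of 0 throughout, and Ccl27a, with a library at 0, runs from 1.59 to 3.62 between M-EPCs and F-EPCs.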

How the data were processed

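RNA-seq libraries were grouped by their labels as M-EPC, F-EPC or OVX-EPC, with 3 of each. The authors mapped reads with HISAT2, and their processing notes also name Cufflinks, Cuffnorm, DESeq and mm10. The annotation used is not given in the sources used here. The deposited signal is a normalized count, a gene's reads divided by the authors' size factor, for genes past their screen. Multiplying back gave whole reads in 100% of cases (within 0.01). The authors' own fold changes and p-values are also in the tables and were not used. The design assumed raw counts of all genes or normalized values, and the latter case applied. Limma 3.58.1 in R 4.3.3 was fitted to log2(normalized count + 1) over all listed genes of a comparison, without covariates, with Benjamini-Hochberg adjustment. As alternatives, edgeR 4.0.16 and DESeq2 1.42.0 were run on the recovered reads, and a pseudocount of 0.1, a minimum mean of 10, a replicate block, an adjusted p under 0.01 and leaving out each library were tried. The fits were tested on simulated data. Places came from GENCODE M21, like transcripts from BLAST 2.17.0. The 3 genes, the marker and chemokine lists and the rule for genes most alike were chosen with earlier results of these data known. Other genes named are members of those lists that illustrate them.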

Additional observations from a re-analysis of the deposited data

How the results depend on the processing

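In the comparisons that list them, Cxcl16, Ccl9 and Ccl27a kept the direction of their differences under the alternatives run. Between M-EPCs and OVX-EPCs, where none of them is listed, the log2 difference of -0.16 for Ccl9 became 0.034 (TMM), 0.46 (RLE) and 0.46 (DESeq2), and that of -0.01 for Ccl27a became 0.18, 0.60 and 0.60; leaving out 1 library gave -0.23 to -0.11 for Ccl9 and -0.26 to 0.21 for Ccl27a, with a positive sign without M-EPC library 2 (0.21), OVX-EPC library 1 (0.040) or OVX-EPC library 2 (0.19). Size factors recomputed from the listed genes gave log2 fold changes between M-EPCs and F-EPCs of 1.11 (TMM), 0.67 (RLE) and 0.67 (DESeq2) for Cxcl16, and of -1.46, -1.90 and -1.90 for Ccl9, and between F-EPCs and OVX-EPCs of 2.51, 2.50 and 2.50 for Ccl9. They moved the median over listed genes by 0.09 (TMM) and -0.35 (RLE and DESeq2) between M-EPCs and F-EPCs, by 0.20 and 0.62 to 0.63 between M-EPCs and OVX-EPCs, and by 1.13 and 1.12 between F-EPCs and OVX-EPCs, and relative to that shift Cxcl16 was at 1.02 and Ccl9 at -1.54 to -1.55 and at 1.38. Between F-EPCs and OVX-EPCs the genes called fell from 796 to 404, 405 and 380, and the receptor genes called from 6 to 3, 3 and 3. The share of called genes that was higher in the first group went from 49.5% to 52.9%, 38.6% and 37.2% between M-EPCs and F-EPCs, from 41.3% to 44.8%, 50.7% and 52.6% between M-EPCs and OVX-EPCs, and from 31.4% to 63.1%, 63.0% and 67.1% between F-EPCs and OVX-EPCs. By construction these factors rest on preselected genes. Leaving out 1 library gave 1.0004 to 1.0518 for Cxcl16, -1.56 to -1.52 and 1.32 to 1.43 for Ccl9, and 1.27 to 3.18 and -3.22 to -1.28 for Ccl27a, whose lowest sizes were those without F-EPC library 2. With a pseudocount of 0.1 Ccl27a was at 3.62 and -3.65, and as a log2 ratio of group means, an alternative chosen after seeing the data, at 1.95 and -1.98. Ccl27a, not called by limma, was called between M-EPCs and F-EPCs by edgeR (authors' size factors, TMM and RLE), by DESeq2, with the block and without F-EPC library 1 or 2, and between F-EPCs and OVX-EPCs by edgeR with the authors' size factors and without F-EPC library 1 or 2. Cxcl16 was not called with RLE or DESeq2. Same-numbered libraries did not deviate together (correlations from -0.02 to 0.03), so the numbers were not taken to pair them. With the replicate number as a block, 2003, 1288 and 781 genes were called between M-EPCs and F-EPCs, M-EPCs and OVX-EPCs, and F-EPCs and OVX-EPCs, against 2043, 1301 and 796 without it, and the log2 fold changes of the chemokine genes (1.02, -1.55, 2.49, 1.38 and -2.52) cannot change in a balanced block, so only the standard errors could. The ligand genes called between M-EPCs and F-EPCs went from 12 to 13 and the receptor genes called between F-EPCs and OVX-EPCs from 6 to 4.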

Other observations

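F-EPC library 2, which had 0 reads of Ccl27a, held 6797 reads of Ccl9 and 1743 of Cxcl16. In the comparison with M-EPCs, 2 of the 2093 listed genes had 1 F-EPC library at 0 reads with at least 10 reads in each of the others. These were Ccl27a, in F-EPC library 2, and Nos2, the inducible nitric oxide synthase, in F-EPC library 1. No listed gene had that pattern in the M-EPC libraries. Between F-EPCs and OVX-EPCs it occurred in F-EPCs for Ccl27a and, in F-EPC library 3, for Elane, which encodes neutrophil elastase. In OVX-EPCs it occurred for none.

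The annotation that the authors added to their tables gives all 3 chemokine genes 11 Gene Ontology terms and 3 KEGG pathways in common. In its column of similar proteins it names the mouse chemokine for Cxcl16 and Ccl27a, but for Ccl9 it names an open reading frame of a human LINE-1 element.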
